A study of Homo sapiens with 8 samples.

Results

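Amino acid transporters of the SLC1, SLC3, SLC7, SLC36, SLC38 and SLC43 families were examined across 4 conditions of prostate cancer cells in which MYCL had been raised or lowered. The members were all genes whose symbol belongs to these families in the count table, which gave 40 of 78691 genes, each under a single symbol. No measured value entered this rule, but the members were chosen with earlier results of these data known. Of the 40, 26 had over 100 counts in at least 1 library, 12 had at most 10 counts in every library, and 2 (SLC7A4 and SLC38A11) had no counts at all.

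C4-2B is an androgen receptor positive prostate adenocarcinoma line. Its control cells carried an empty lentiviral vector, and its MYCL cells carried a lentivirus with human MYCL behind the constitutive EF1A promoter, linked to EGFP. According to the study's methods, infected cells were kept by puromycin selection or by fluorescence sorting. NCI-H660 is a neuroendocrine prostate cancer line that lacks androgen receptor signaling. Its shCtrl cells received a non-targeting control and its shMYCL cells an shRNA vector against MYCL. The series describes that vector as adenoviral, a type that the methods use for transient knockdown with 3 miR30-based shRNAs, whereas the sample labels speak of stable knockdown. The time after infection is not given for the libraries. Each of the 4 groups had 2 poly(A)-selected libraries sequenced as paired-end reads. Line, vector, virus type and culture differ together between C4-2B and NCI-H660 and cannot be told apart.

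Library totals ran from 15177071 to 32344170 counts, of which the 40 transporters took between 0.20% and 0.30%. The targeted gene followed its label in all 8 libraries. MYCL counts were 371 and 320 in C4-2B control against 65524 and 70253 in C4-2B MYCL, and 1863 and 1602 in shCtrl against 165 and 198 in shMYCL. Its relative MYC lay at 88.2 and 91.5 TPM in control, 53.2 and 65.7 in MYCL, 11.3 and 14.1 in shCtrl and 24.3 and 19.6 TPM in shMYCL. The lines differed by label in most defining markers, but not in all. KLK3 lay between 750 and 1267 TPM (a level per unit of gene length, scaled to the same total in every library) in C4-2B and was listed at 0 in NCI-H660, and CHGA lay between 112 and 126 TPM in NCI-H660 and was at or below 0.276 TPM in C4-2B. FOXA1, KRT8 and KRT18, counted among the luminal markers, were not lower in NCI-H660, where KRT8 lay between 770 and 832 TPM against 303 to 372 TPM in C4-2B, and the 9 luminal markers summed to between 1387 and 1535 TPM there. The fibroblast marker DCN was at 0 in every library, and the leukocyte marker PTPRC did not exceed 0.0283 TPM. Marker sums moved with the treatments. The 6 leukocyte and endothelial markers summed to 9.90 and 12.4 TPM in control and 25.2 and 27.2 TPM in MYCL, of which CD68 made up 8.30 to 25.6 TPM. The 6 fibroblast markers summed to 44.7 and 39.4 TPM in shCtrl and 27.1 and 26.3 TPM in shMYCL, nearly all COL1A2. Neuroendocrine markers did not move together with knockdown. INSM1 stood at 37.1 and 35.4 TPM in shCtrl and 22.3 and 24.2 TPM in shMYCL, and CHGA, NCAM1 and DLL3 were lower in both shMYCL libraries too. CHGB stood at 125 and 122 TPM against 149 and 185 TPM, SCG3 at 163 and 152 TPM against 191 and 219 TPM, and the libraries of SYP overlapped. The 9 luminal markers summed to 2673 and 2657 TPM in control and 2089 and 2032 TPM in MYCL. The part of these shifts in the results that follow was not tested, and in bulk RNA fewer cells of a type and less RNA per cell cannot be told apart.

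Amino acids cross membranes through carriers that differ in substrate, driving ion and location. Heteromeric transporters pair a heavy chain (4F2hc, encoded by SLC3A2, or rBAT, encoded by SLC3A1) with a light chain of the SLC7 family that does the transport, such as LAT1 (SLC7A5) for leucine and other large neutral amino acids or xCT (SLC7A11), which imports cystine in exchange for glutamate. SLC1A5 and members of SLC38 bring in glutamine, SLC7A1 brings in arginine and lysine, and SLC36A1 and SLC38A9 sit on lysosomes, where amino acids are reported to the growth kinase mTORC1. Several of these genes are known targets of MYC and of ATF4, the factor that cells raise when amino acids run short, and tumor cells draw on the carriers for growth.

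Promoter windows are shown for the transporters that passed the test in both lines, so that the sequence can be read beside the changes given below. RefSeq windows (GRCh38.p14, 250 bases before and 50 bases from each transcription start) were at hand for 31 of the 40 members, 53 windows in all, and for 3 of the 4 genes concerned (SLC1A1, SLC1A4 and SLC36A1). SLC43A3 was the fourth. SLC3A2 was added after its values were seen, since it rose by over 2-fold in C4-2B. Capitals mark CACGTG (the E-box bound by MYC family proteins), TGATGNAA (a core of the C/EBP-ATF response element bound by ATF4) and TGACNNNGC (the antioxidant response element bound by NRF2), each searched on both strands. Of the alternative starts of SLC1A4, SLC36A1 and SLC3A2, the window that holds a match is printed, and the other windows of these genes held none. The genes lie on the plus strand, and each sequence runs 5′ to 3′.
SLC1A1, chr9:4490218-4490517: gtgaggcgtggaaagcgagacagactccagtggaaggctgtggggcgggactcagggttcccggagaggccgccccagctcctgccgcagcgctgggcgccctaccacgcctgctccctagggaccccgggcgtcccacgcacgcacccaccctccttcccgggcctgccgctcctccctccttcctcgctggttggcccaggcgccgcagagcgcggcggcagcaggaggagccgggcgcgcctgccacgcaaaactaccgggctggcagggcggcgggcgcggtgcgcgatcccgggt
SLC1A4, chr2:64989149-64989448: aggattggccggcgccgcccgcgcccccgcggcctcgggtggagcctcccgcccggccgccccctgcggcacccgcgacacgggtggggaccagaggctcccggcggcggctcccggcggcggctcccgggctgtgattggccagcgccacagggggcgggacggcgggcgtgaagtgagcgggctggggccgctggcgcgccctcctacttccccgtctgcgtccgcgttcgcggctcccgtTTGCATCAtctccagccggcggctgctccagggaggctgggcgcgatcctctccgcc
SLC36A1, chr5:151447353-151447652: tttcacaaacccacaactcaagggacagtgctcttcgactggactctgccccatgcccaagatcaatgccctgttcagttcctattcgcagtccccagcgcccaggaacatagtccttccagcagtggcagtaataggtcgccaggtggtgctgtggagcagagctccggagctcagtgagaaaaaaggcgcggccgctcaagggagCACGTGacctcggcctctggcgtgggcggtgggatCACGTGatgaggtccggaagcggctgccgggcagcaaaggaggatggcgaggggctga
SLC3A2, chr11:62881449-62881748: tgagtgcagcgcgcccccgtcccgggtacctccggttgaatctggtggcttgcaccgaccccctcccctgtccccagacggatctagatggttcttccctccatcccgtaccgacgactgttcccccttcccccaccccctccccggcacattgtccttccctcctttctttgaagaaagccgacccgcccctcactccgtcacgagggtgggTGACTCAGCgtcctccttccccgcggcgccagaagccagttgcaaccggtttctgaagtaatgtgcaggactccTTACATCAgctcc

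The SLC1A1 window, which starts at the first base of the annotated gene, held none of the 3 motifs. SLC1A4 held TGATGNAA on the minus strand, 7 bases before a start that lies 922 bases inside the annotated gene. In SLC36A1 CACGTG stood 43 and 8 bases before a start that lies 10557 bases inside the annotated gene. The SLC3A2 window held TGACNNNGC 37 bases before its start and TGATGNAA on the minus strand 37 bases after it. That SLC3A2 start lies 25695 bases inside the annotated gene. Over the members with windows, CACGTG was present in 17.0% of windows (9 of 53, in 9 genes). Among the 35116 RefSeq windows outside chromosome 8 it was present in 7.26%. TGATGNAA was present in 11.3% (6 of 53) against 3.62%, and TGACNNNGC in 13.2% (7 of 53) against 13.3%. Windows of one gene can overlap, and a match describes these letters only.

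Transporter mRNA was concentrated in a few genes. Summed over the 40 members, the level was 699 ± 14.4 TPM (SD, n = 2) in C4-2B control, 809 ± 59.3 in C4-2B MYCL, 854 ± 8.30 in shCtrl and 912 ± 28.4 in shMYCL. SLC3A2, SLC38A2, SLC38A1, SLC1A5, SLC7A1 and SLC7A5 together held between 64.6% and 73.8% of that sum in each library. The glutamine carrier genes SLC38A1 and SLC38A2 stood close to each other in every library, with SLC38A2 at 1.07 to 1.26 times the TPM of SLC38A1. At the other end, 14 members stayed below 1 TPM in every library. Among them were SLC7A7, SLC7A9, SLC7A10 and SLC7A13, light chains known from kidney, gut or brain, and the brain carriers SLC1A2, SLC1A6 and SLC38A8. The others were SLC1A7, SLC7A3, SLC7A4, SLC36A2, SLC36A3, SLC38A5 and SLC38A11.

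**Figure D1:**
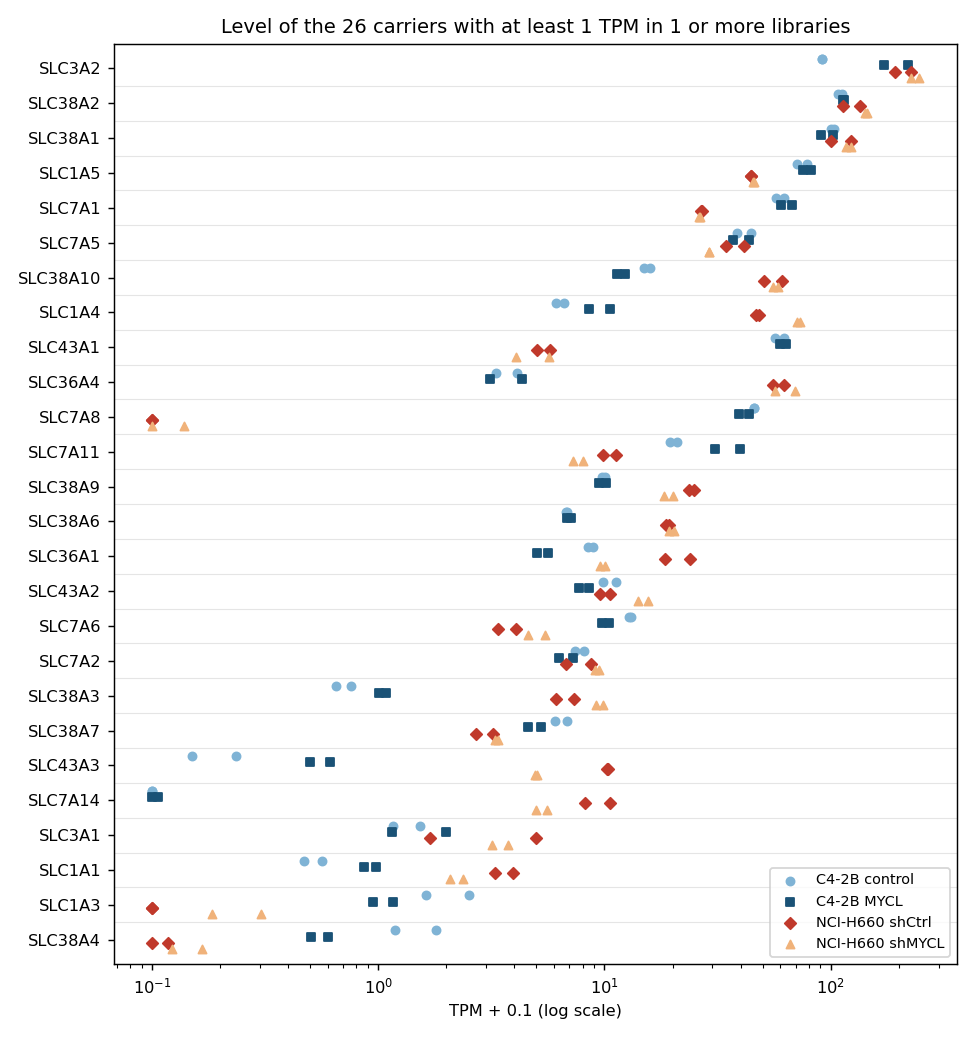
Level of the 26 transporters that reached 1 TPM in at least 1 library, as TPM + 0.1 on a log scale, with 1 point per library and symbols for the 4 groups. SLC3A2, SLC38A2 and SLC38A1 lie near 100 TPM or above in both lines, whereas SLC7A8 and SLC43A1 stand higher in C4-2B and SLC36A4, SLC1A4, SLC43A3 and SLC7A14 stand higher in NCI-H660.

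The first comparison asked what MYCL overexpression changes in adenocarcinoma cells. In C4-2B the heavy chain SLC3A2 rose 2.28-fold and the cystine carrier SLC7A11 rose 1.95-fold, and the neutral carrier SLC1A4, the glutamate carrier SLC1A1 and SLC43A3 rose as well, whereas the lysosomal carrier SLC36A1 and the neutral carrier SLC38A4 fell. The leucine carrier SLC7A5, the glutamine carriers SLC1A5, SLC38A1 and SLC38A2 and the arginine carrier SLC7A1 did not pass the test. Counts are given as CPM, scaled by edgeR's TMM method to a common library size within each comparison. A gene was called where its log2 fold change reached 0.5 in either direction and its Benjamini-Hochberg adjusted p, over all 16866 genes in edgeR's quasi-likelihood test, was under 0.05. Of the 26 members that passed the filter on low counts, 7 were called, 5 higher and 2 lower. This is 26.9% of them, beside 19.9% of all genes tested, 11.8% called higher and 8.12% called lower. The members' median log2 fold change was 0.13, and that of all genes was -0.0017.

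SLC3A2 (chr11:62856004-62888880, plus strand), the heavy chain that brings LAT1 and xCT to the cell surface, had 136 and 136 CPM in the control libraries and 263 and 356 CPM in the MYCL libraries. Both MYCL libraries were above both control libraries, although they differed from each other more than the controls did. The log2 fold change was 1.19 (SE 0.125, adjusted p = 0.000222 by edgeR). SLC7A11 (chr4:138164097-138242349, minus strand), the light chain xCT, had 155 and 165 CPM in control against 260 and 363 CPM in MYCL. As for SLC3A2, the groups did not overlap and MYCL replicate 2 stood highest. Its log2 fold change was 0.96 (SE 0.135, adjusted p = 0.000873 by edgeR). Of the SLC7A11 exon bases, 8.97% are shared with the antisense gene SLC7A11-AS1.

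SLC1A4 (chr2:64988477-65023865, plus strand), which exchanges alanine, serine, cysteine and threonine, had 19.2 and 20.6 CPM in control and 29.5 and 37.4 CPM in MYCL. Its log2 fold change was 0.75 (SE 0.123, adjusted p = 0.00188 by edgeR), and the groups did not overlap. SLC1A1 (chr9:4490468-4587469, plus strand), a carrier of glutamate, aspartate and cysteine, was far less abundant, at 1.08 and 1.34 CPM in control and 2.71 and 2.57 CPM in MYCL. Its libraries did not overlap either, and the log2 fold change was 1.13 (SE 0.333, adjusted p = 0.0276 by edgeR). The SLC1A1 call was lost without control replicate 1 (adjusted p = 0.137), without MYCL replicate 1 (0.068) and without MYCL replicate 2 (0.0586), each by edgeR. The SLC1A1 counts behind it were 35 and 32 in control and 50 and 45 in MYCL, from libraries of unequal depth.

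SLC43A3 (chr11:57406954-57427580, minus strand), placed among the SLC43 amino acid carriers by sequence but known to carry purine nucleobases, had few counts, 3 and 6 in control libraries against 20 and 14 in those with MYCL. These counts correspond to 0.0922 and 0.252 CPM against 1.08 and 0.801 CPM, without overlap. The log2 fold change was 2.49 (SE 0.657, adjusted p = 0.0178 by edgeR), and its wide interval of 1.00 to 3.97 reflects the low counts. Leaving out control replicate 1 or MYCL replicate 1 ended the SLC43A3 call (adjusted p = 0.178 and 0.118 by edgeR). Of its exon bases, 29.9% are shared with another gene on the same strand (ENSG00000254979), so that reads there are uncertain.

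The 2 transporters that fell lay in other families. SLC36A1 (chr5:151437046-151492379, plus strand), a proton-coupled carrier of glycine, alanine and proline on lysosomes, had 39.2 and 39.9 CPM in control and 26.6 and 25.5 CPM in MYCL, so that the groups were well apart. Its log2 fold change was -0.60 (SE 0.0862, adjusted p = 0.00096 by edgeR). SLC38A4 (chr12:46764761-46832408, minus strand), a carrier of neutral and cationic amino acids best known from liver and placenta, had 4.95 and 3.19 CPM in control and 1.95 and 1.37 CPM in MYCL. The log2 fold change of SLC38A4 was -1.29 (SE 0.331, adjusted p = 0.0155 by edgeR), and without control replicate 1 it was -0.95 (adjusted p = 0.112). Without that library 4 members, not 7, were called in C4-2B.

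The 19 tested members that were not called had log2 fold changes between -0.74 and 0.74. For the abundant ones the intervals were narrow. The 95% interval of the log2 fold change was -0.16 to 0.36 for SLC7A5, -0.14 to 0.26 for SLC38A1, 0.04 to 0.36 for SLC38A2, 0.02 to 0.46 for SLC7A1 and 0.02 to 0.50 for SLC1A5. No interval of these 5 carriers went past 0.5 on the log2 scale. SLC1A3, a glutamate carrier of glia, had 4.64 and 3.61 CPM in control and 2.17 and 2.80 CPM in MYCL, a log2 fold change of -0.74 (adjusted p = 0.0679 by edgeR), and it was called without MYCL replicate 2 (-0.93, adjusted p = 0.0454). SLC38A3, a glutamine carrier of liver and brain, had a log2 fold change of 0.74 on 30 to 35 counts per library (adjusted p = 0.15 by edgeR). Non-overlap of 2 against 2 libraries was common here, seen in 19 of the 26 members and in 69.2% of all genes tested.

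The second comparison asked what MYCL knockdown changes in neuroendocrine cells. In NCI-H660 SLC36A1 and SLC43A3 fell 2.17-fold and 2.15-fold, and SLC7A14 and SLC1A1 fell less, whereas SLC1A4 and SLC38A3 rose. SLC3A2 and the glutamine and arginine carriers SLC1A5, SLC38A1, SLC38A2 and SLC7A1 did not pass the test. Of the 24 members tested, 6 were called, 2 higher and 4 lower. This is 25% of them, beside 16.2% of the 16980 genes tested, 7.18% called higher and 8.99% called lower. The median log2 fold change was 0.04 over the members and -0.0029 over all genes.

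SLC36A1 had 77.7 and 63.4 CPM in the shCtrl libraries and 32.6 and 32.4 CPM in the shMYCL libraries. Both shMYCL libraries were far below both shCtrl libraries, and the log2 fold change was -1.12 (SE 0.124, adjusted p = 1.68e-05 by edgeR). SLC43A3 had 14.5 and 15 CPM in shCtrl and 7.31 and 6.45 CPM in shMYCL, with a log2 fold change of -1.10 (SE 0.172, adjusted p = 0.000292 by edgeR). Here the counts ran from 101 to 278 per library. SLC7A14 (chr3:170459548-170586075, minus strand), a neuronal member of the cationic branch, had 62.8 and 51.5 CPM in shCtrl and 30.0 and 33.5 CPM in shMYCL. For SLC43A3 and SLC7A14, too, the groups did not overlap, and the log2 fold change of SLC7A14 was -0.85 (SE 0.128, adjusted p = 0.000236 by edgeR).

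SLC1A1 had 7.97 and 7.03 CPM in shCtrl against 4.80 and 4.22 CPM in shMYCL. The log2 fold change of SLC1A1 was -0.73 (SE 0.225, adjusted p = 0.0262 by edgeR), and its adjusted p was 0.103 without shCtrl replicate 1, 0.052 without shMYCL replicate 1 and 0.144 without shMYCL replicate 2. DESeq2 did not call SLC1A1 in either line (adjusted p = 0.0622 in C4-2B and 0.103 in NCI-H660). SLC1A4 rose from 112 and 118 CPM to 175 and 168 CPM. Its groups were clearly apart, with a log2 fold change of 0.58 (SE 0.103, adjusted p = 0.000863 by edgeR), and the call held without each library in turn. SLC38A3 (chr3:50205246-50221486, plus strand) had 8.20 and 10.5 CPM in shCtrl and 13.8 and 13.1 CPM in shMYCL. Its log2 fold change of 0.52 (SE 0.174, adjusted p = 0.0394 by edgeR) lay just past the limit, and the call was lost under DESeq2 (adjusted p = 0.124) and without shCtrl replicate 1 (0.14), shMYCL replicate 1 (0.156) or shMYCL replicate 2 (0.0982).

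A further 3 members had an adjusted p under 0.05 but missed the limit on the fold change. SLC7A11 went from 63.1 and 58.8 CPM to 46.5 and 41.7 CPM, with a log2 fold change of -0.47 (SE 0.114, adjusted p = 0.00763 by edgeR). It passed the limit without shCtrl replicate 2 (-0.52) or shMYCL replicate 1 (-0.54). SLC7A5 had 84.9 and 109 CPM in shCtrl and 73.5 and 74.5 CPM in shMYCL, a log2 fold change of -0.39 (SE 0.122, adjusted p = 0.0269 by edgeR), and it was called without shCtrl replicate 1 (log2 fold change -0.56). The lysosomal arginine carrier SLC38A9, a sensor in the mTORC1 pathway, had a log2 fold change of -0.35 (SE 0.121, adjusted p = 0.0434 by edgeR). For SLC3A2 the libraries overlapped, at 190 and 239 CPM in shCtrl and 231 and 250 CPM in shMYCL, and the 95% interval of its log2 fold change was -0.08 to 0.41. The interval was -0.24 to 0.24 for SLC1A5, -0.20 to 0.25 for SLC38A1, -0.14 to 0.31 for SLC38A2 and -0.24 to 0.19 for SLC7A1. SLC43A2 (0.38, adjusted p = 0.0584 by edgeR) was called without shCtrl replicate 2, at 0.53, and SLC3A1, whose shCtrl libraries stood at 7.97 and 2.76 CPM, went from 0.07 to 1.03 without shCtrl replicate 1. Of the SLC3A1 exon bases, 54.6% are shared with PREPL and ENSG00000285542, so that reads there are uncertain. Libraries of the groups did not overlap for 14 of the 24 members, beside 63.1% of all genes tested.

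**Figure D2:**
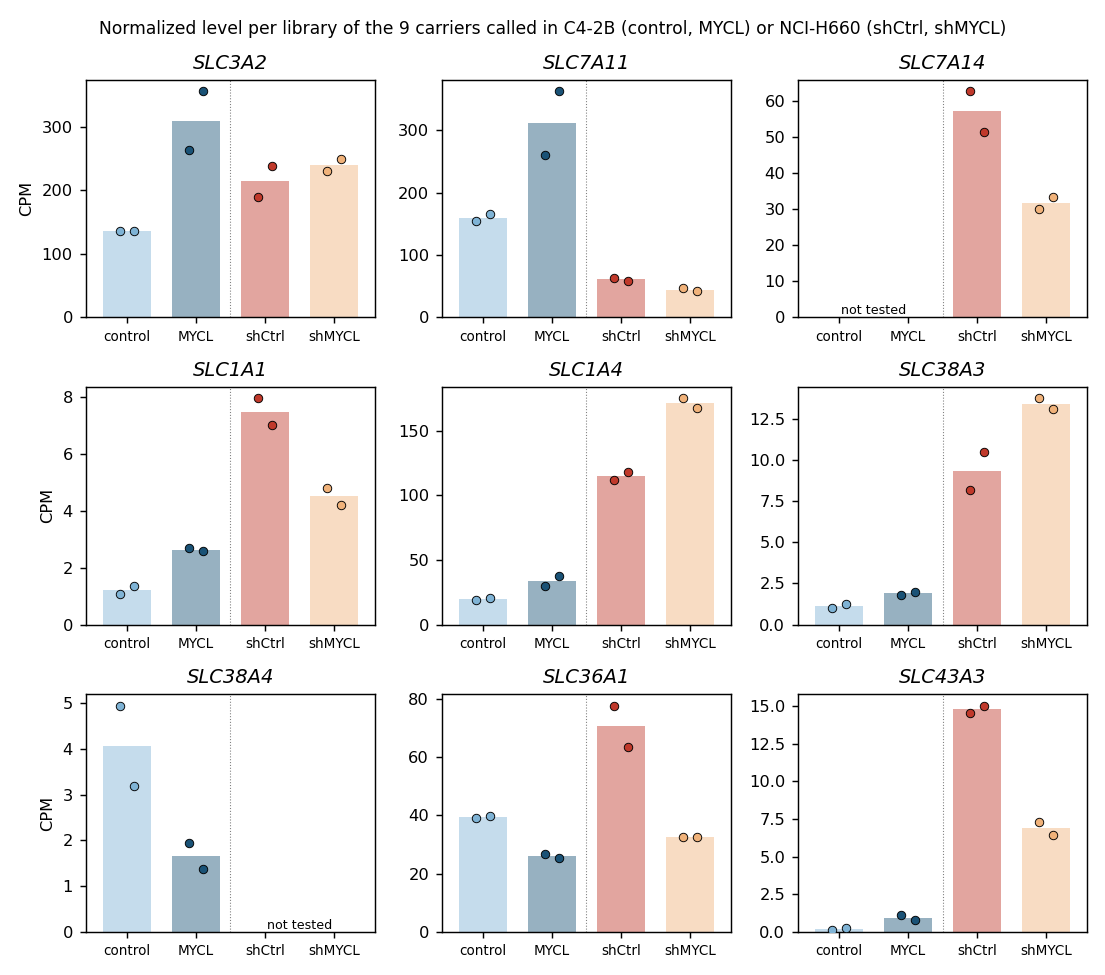
CPM per library of the 9 transporters called in at least 1 line, with points for libraries and bars for the mean of 2 libraries, each axis starting at 0. CPM was scaled within each line, and a gene that did not pass the filter in a line is marked as not tested. SLC1A4 stands higher in MYCL than in control and higher in shMYCL than in shCtrl, and SLC36A1 stands lower in both.

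The lines were then set side by side. Of the 22 members tested in both, 4 were called in both lines and 15 in neither, beside 4.19% and 69% of the 14212 genes tested in both. SLC1A1 and SLC43A3 were higher with MYCL overexpression and lower with MYCL knockdown, that is, higher on the side with more MYCL each time. SLC1A4 and SLC36A1 moved the same way under overexpression and knockdown, SLC1A4 up and SLC36A1 down. Over all genes tested in both lines, 2.76% were called in opposite directions of the treatment and 1.44% in the same direction. The MYCL comparisons of the 2 lines share no libraries. Whether an effect of higher MYCL differed between the lines was tested as an interaction. This was the log2 fold change of MYCL against control in C4-2B minus that of shCtrl against shMYCL in NCI-H660. The size of the MYCL change and the vector differ with the line, so the test cannot assign a difference to the line itself.

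Of the 28 members tested for that difference, 4 were called, which is 14.3% beside 17.9% of the 19605 genes tested. SLC36A1 had a difference of -1.72 (SE 0.158, adjusted p = 2.52e-05 by edgeR's quasi-likelihood test), SLC1A4 one of 1.32 (SE 0.155, adjusted p = 0.000124) and SLC3A2 one of 1.35 (SE 0.191, adjusted p = 0.000436). The SLC3A2 difference came with a rise in C4-2B and overlapping libraries in NCI-H660. SLC38A3 had a difference of 1.26 (SE 0.348, adjusted p = 0.0214 by edgeR), which was lost when any of 5 libraries was left out, namely control replicate 1, MYCL replicate 2, shCtrl replicate 1 and both shMYCL replicates (adjusted p up to 0.0915). SLC1A1 was not called for the difference (0.40, 95% interval -0.44 to 1.23). SLC43A3 (1.40, interval 0.26 to 2.54, adjusted p = 0.0807 by edgeR) and SLC7A11 (0.49, interval 0.08 to 0.90, adjusted p = 0.0888 by edgeR) were not called, although their intervals lay above 0. SLC43A3 was called without C4-2B control replicate 2 (2.18, adjusted p = 0.0389), and SLC7A11 without MYCL replicate 1 (0.73, adjusted p = 0.00494), under DESeq2 and with at least 10 counts required in every library.

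**Figure D3:**
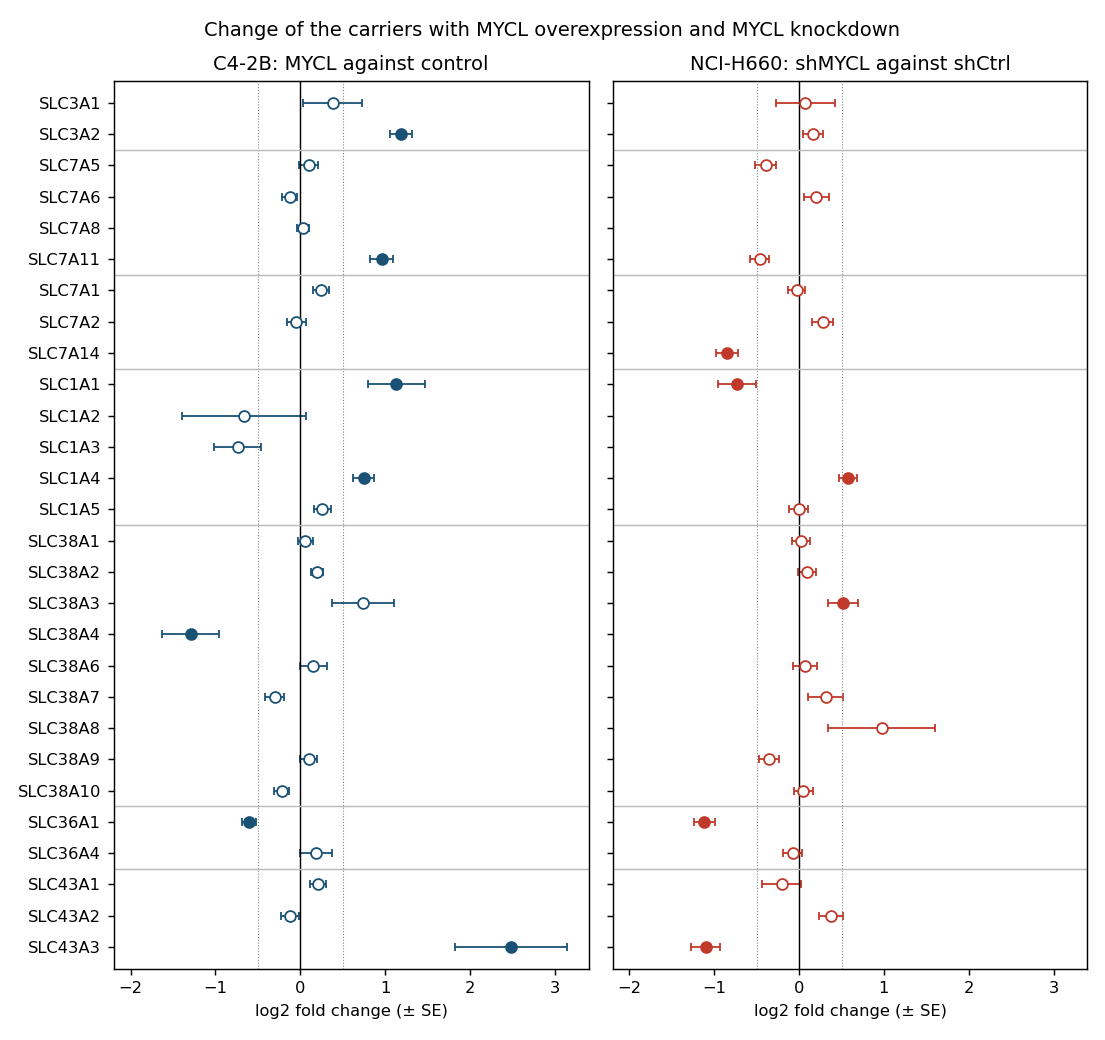
Log2 fold change with its SE for each transporter tested, in C4-2B (MYCL against control, left) and NCI-H660 (shMYCL against shCtrl, right), grouped by family from SLC3 at the top to SLC43 at the bottom. Filled points were called, open points were not, and dotted lines mark 0.5 in both directions. SLC1A1 and SLC43A3 lie on opposite sides in the panels, SLC1A4 and SLC36A1 on the same side.

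Because heavy and light chains work in pairs, their levels were compared per gene length. In C4-2B control SLC3A2 stood at 91.8 and 91.5 TPM and its 6 light chains (SLC7A5, SLC7A6, SLC7A7, SLC7A8, SLC7A10 and SLC7A11) summed to 120 ± 5.07 TPM (SD, n = 2), a ratio of heavy to light chain TPM of 0.763 ± 0.0334. With MYCL the light chain sum was 127 ± 7.44 TPM and the ratio 1.54 ± 0.166. In NCI-H660 the light chains summed to 52.0 ± 3.33 TPM in shCtrl and 41.5 ± 0.0687 TPM in shMYCL. There the ratio was 4.01 ± 0.198 and 5.70 ± 0.306. In each line the 2 libraries of one group lay apart from the 2 of the other on this ratio, and with 2 against 2 an exact permutation test cannot give a p below 0.33. Among the light chains, SLC7A5 had 1.99 and 2.14 times the TPM of SLC7A11 in control and 1.20 and 1.09 times in the MYCL libraries.

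**Figure D4:**
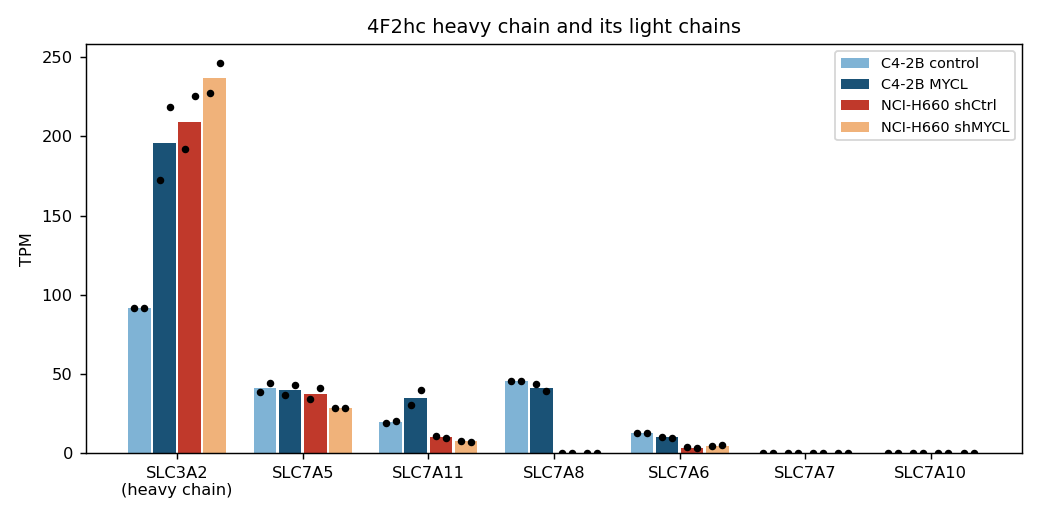
TPM of the 4F2hc heavy chain SLC3A2 and its light chains in the 4 groups, with bars for the mean of 2 libraries and points for each library. SLC3A2 exceeds each light chain in every group, and SLC7A8 is near 45 TPM in C4-2B and at or near 0 in NCI-H660.

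Control cells of the lines differed in most transporters, as they did in most genes. Against C4-2B control, NCI-H660 shCtrl cells had lower RNA of the light chains SLC7A5, SLC7A6, SLC7A8 and SLC7A11, the arginine carrier SLC7A1, the glutamine carrier SLC1A5 and the leucine carrier SLC43A1, and higher RNA of SLC1A4, SLC1A1, SLC36A4, SLC38A3, SLC43A3 and SLC7A14. The SLC7A5 call was lost on log2(TPM + 1), as given below. Of 26 members tested, 22 were called by edgeR, 10 higher and 12 lower in NCI-H660. This is 84.6% of them, beside 71.6% of the 18748 genes tested, 37.4% called higher and 34.2% called lower. The members' median log2 fold change was -0.43 and that of all genes 0.04. This comparison shares its control libraries with both MYCL comparisons.

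A number of transporters were close to absent from one line. SLC7A8, the LAT2 light chain, had 2511 and 1815 counts in C4-2B control and none in either shCtrl library, which makes it at least 508-fold higher in C4-2B (against 3 counts per library). SLC1A3 had 151 and 86 counts against 0 and 0, at least 27.3-fold higher in C4-2B. The reverse held for SLC7A14, with 0 and 0 counts in C4-2B control and 1064 and 951 in shCtrl, at least 466-fold higher in NCI-H660. SLC38A4 had 161 and 76 counts in C4-2B control and 0 and 1 in shCtrl, a ratio of 167 with an exact 95% counting interval of 29.8 to 6641. These bounds cover counting error only. The same genes were near 0 in the other condition of their low line, where SLC7A14 had 1 and 0 counts in C4-2B MYCL, SLC7A8 had 1 and 0 in shMYCL and SLC1A3 had 2 and 5 in shMYCL.

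Among transporters present in both lines, SLC43A1, the leucine carrier LAT3 once named for its overexpression in prostate cancer, had 112 and 119 CPM in C4-2B control and 6.06 and 7.60 CPM in shCtrl, 16.8-fold lower in NCI-H660 (adjusted p = 8.64e-11 by edgeR). SLC36A4, a carrier of proline and tryptophan, went the other way with 9.45 and 7.93 CPM against 139 and 121 CPM, 14.9-fold higher (adjusted p = 1.12e-10 by edgeR). SLC1A4 had 20.5 and 22 CPM against 106 and 112 CPM, 5.14-fold higher, and SLC1A5, its close relative, had 132 and 141 CPM against 50.3 and 55.5 CPM, 2.58-fold lower. Per length, SLC1A5 thus stood at 11.9 ± 0.120 times the TPM of SLC1A4 in C4-2B control and at 0.934 ± 0.0142 times in shCtrl (SD, n = 2). SLC43A3 was higher in NCI-H660 by 6.31 on the log2 scale (95% interval 5.54 to 7.08), on 3 and 6 counts in C4-2B control, and by 5.67 without control replicate 1 and 7.07 without control replicate 2. Of the remaining SLC38 carriers, SLC38A10 (log2 fold change 1.27) and SLC38A6 (0.86) were called higher in NCI-H660, and SLC38A7, a lysosomal glutamine carrier, was called lower (-1.88). For SLC7A6, which was 4.92-fold lower in NCI-H660, 55.6% of exon bases are shared with antisense genes, and 23.8% are for SLC1A5.

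Differences between the lines depended on the scale for genes of moderate change. On log2(TPM + 1) the median of all genes was shifted by 0.57 towards NCI-H660 and 71.4% of calls were higher there, against 52.2% on CPM. The members' median turned from -0.43 to 0.15 on that scale, with 11 called higher and 9 lower. SLC7A5, SLC7A2 and SLC43A2, called lower in NCI-H660 on CPM (log2 fold changes -0.75, -0.63 and -1.25), were not called on that scale, and SLC7A2 was also lost without shCtrl replicate 2 (-0.46). SLC38A1 and SLC38A2, not called on CPM at -0.44 and -0.42, reached 0.12 and 0.18 among the alternatives, so that no direction is given for them. SLC3A2 had a log2 fold change of 0.49 (SE 0.106, adjusted p = 0.00115 by edgeR), just short of the limit, and was called higher in NCI-H660 under 8 of 16 alternatives, among them without shCtrl replicate 1 (0.67). SLC38A1 was called lower without that library (-0.52), and SLC3A1 (0.74, adjusted p = 0.122 by edgeR) was called higher without control replicate 2 (0.94) or shCtrl replicate 2 (1.35). For SLC3A1, 54.6% of exon bases are shared with other genes, as given above. In C4-2B the TPM scale moved the median of all genes by -0.14 and turned the share of calls that were higher from 59.2% to 33.5%. The members' median there was -0.03 in place of 0.13, while each called transporter that was tested on that scale kept its direction. SLC1A1 and SLC43A3 lay below the TPM filter in C4-2B and were not tested on it.

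Genes around the transporters were described from fixed lists, with no test of a list. The lists were chosen with earlier results of these data known, so their counts describe and give no independent support. The amino acid response list holds ATF4, genes named as its targets and the kinase genes EIF2AK4 and EIF2AK3. What moved these genes was not tested. In C4-2B 15 of the 24 genes on this list were called higher and 1 lower with MYCL, beside 11.8% and 8.12% of all genes. Their median log2 fold change was 0.88. DDIT3, which encodes the stress factor CHOP, rose by 4.13 (SE 0.138), ATF3 by 2.84 (SE 0.1) and the glutathione-degrading CHAC1 by 2.57 (SE 0.144) on the log2 scale, while ATF5 fell by 1.30 (SE 0.131), with adjusted p up to 0.000183 by edgeR. Without MYCL replicate 1 or 2 the number called higher was 20 or 13. In NCI-H660 none of the 24 genes was called higher with knockdown by edgeR or DESeq2 (1 at an unadjusted p under 0.05) and 5 were called lower, with a median of -0.12. Without shCtrl replicate 2 that median was 0.03, with 4 called lower. STC2 fell by 1.74 (SE 0.123), DDIT4 by 1.54 (SE 0.201) and VLDLR by 1.35 (SE 0.148), genes that hypoxia also induces. For SLC3A2, SLC7A11 and SLC1A4, often named as ATF4 targets too, the log2 fold changes were 1.19, 0.96 and 0.75 in C4-2B and 0.16, -0.47 and 0.58 in NCI-H660. SLC7A5, SLC38A2 and SLC7A1, also named as such targets, had 0.10, 0.20 and 0.24 in C4-2B and -0.39, 0.09 and -0.03 in NCI-H660. No call was made for SLC7A5, SLC38A2 or SLC7A1 in either line.

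Amino acid carriers outside the 6 families were split. In C4-2B 4 of 18 were called higher and 4 lower, beside 11.8% and 8.12% of all genes, and on log2(TPM + 1) 2 of 15 were higher and 6 lower. SLC17A7, a vesicular glutamate carrier, rose by 3.04 (SE 0.648) from 0.214 to 1.71 mean CPM, the glycine carrier SLC6A9 by 1.28 (SE 0.206) and the mitochondrial carrier SLC25A29 by 0.82 (SE 0.135) on the log2 scale. The peptide carrier SLC15A2 fell by 1.77 (SE 0.278), the aspartate-glutamate carrier SLC25A13 by 1.03 (SE 0.0948) and the ornithine carrier SLC25A15 by 0.65 (SE 0.0922). In NCI-H660 3 of 23 were called higher and 3 lower, beside 7.18% and 8.99% of all genes, and on log2(TPM + 1) 1 of 19 was higher and 2 lower. SLC6A17 rose by 1.54 (SE 0.21), SLC16A10 by 0.56 (SE 0.148) and SLC66A1 by 0.56 (SE 0.173), and SLC15A2 fell by 1.30 (SE 0.396), the taurine carrier SLC6A6 by 0.64 (SE 0.111) and SLC25A15 by 0.62 (SE 0.131). The adjusted p-values of these genes did not exceed 0.0269 by edgeR.

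Enzymes that use the carried amino acids changed in part. Of 20 cytosolic aminoacyl-tRNA synthetases, 3 (SARS1, CARS1 and AARS1) were called higher and 2 (VARS1 and FARSB) lower in C4-2B, with log2 fold changes from -0.60 to 0.83. Over all genes in C4-2B, 11.8% were called higher and 8.12% lower. Without MYCL replicate 1 these counts were 5 and 0, without MYCL replicate 2 they were 1 and 2, and without control replicate 1 they were 3 and 1. None was called in NCI-H660 by edgeR or DESeq2, although 3 were higher at an unadjusted p under 0.05. In the glutamine, glutamate and aspartate list, 4 of 12 rose in C4-2B and 1 fell. ASS1, which joins citrulline and aspartate on the way to arginine, rose by 1.90 (SE 0.124) in C4-2B and fell by 0.95 (SE 0.181) with knockdown in NCI-H660. GOT1 (0.74) and GPT2 (0.67) rose and ADSS2 (-0.61) fell in C4-2B. In NCI-H660 1 of 11 rose (the glutamine synthetase gene GLUL, 0.54) and ASS1 alone fell, and GLUL was not called without shMYCL replicate 2. In the glutathione list 5 of 12 rose in C4-2B, beside 11.8% of all genes called higher, among them OPLAH (1.19), CTH (1.15) and GGT7 (0.73), and none was called lower by edgeR or DESeq2 (1 at an unadjusted p under 0.05). On log2(TPM + 1) 2 of 11 genes of the glutathione list were called higher, and in the glutamine, glutamate and aspartate list 2 of 12 were higher and 2 lower. With knockdown OPLAH also rose (1.11) and GGT1 fell (-0.78), 2 of 11 genes. Over all genes, 7.18% were called higher and 8.99% lower with knockdown.

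Of 30 genes of amino acid sensing by mTORC1, 3 were called higher in C4-2B (SESN3 at 1.46, RRAGD at 0.80 and CASTOR1 at 0.68 on the log2 scale) and 1 lower (LAMTOR1 at -0.52). Over all genes tested there, 11.8% were called higher and 8.12% lower. In NCI-H660 DEPDC5 (0.66) and RPTOR (0.56) were called higher and SAMTOR (-0.78), RRAGA (-0.55) and FLCN (-0.52) lower. The shares over all genes in that line were 7.18% higher and 8.99% lower. LAMTOR1 was not called without MYCL replicate 1, and without shCtrl replicate 2 1 gene was called lower in NCI-H660. Of 13 genes of branched-chain amino acid breakdown, BCAT1 (1.48) and BCKDHA (1.21) rose and MCCC2 (-1.19) fell in C4-2B. The shares of all genes in each line, given above, stand beside this list too. In NCI-H660 BCKDHB (-0.90) and BCKDHA (-0.52) fell, and none was called higher by edgeR or DESeq2 (0 at an unadjusted p under 0.05), while 4 were called lower without shCtrl replicate 2. Most genes of these lists, 26 of 30 and 10 of 13 in C4-2B and 25 of 30 and 11 of 13 in NCI-H660, did not pass the test.

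**Figure D5:**
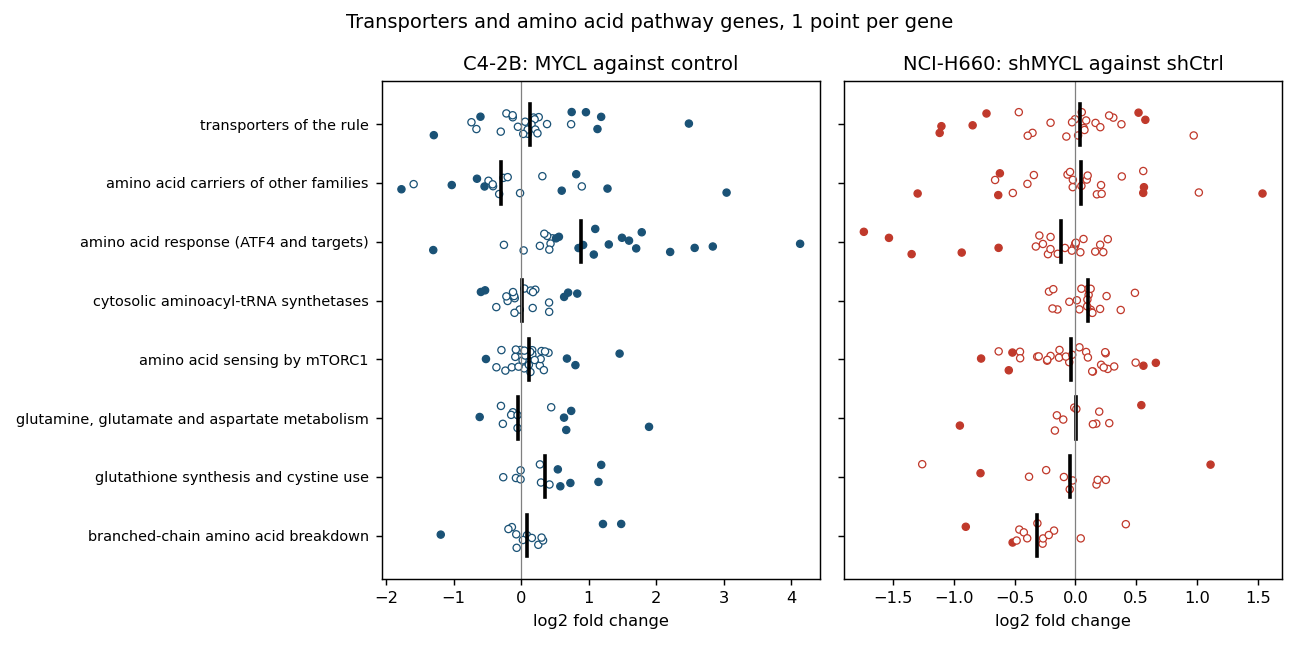
Log2 fold changes of the transporters and of the 7 lists around them in C4-2B (left) and NCI-H660 (right), with 1 point per gene, filled where called, and a black line at each median. The amino acid response list has a median of 0.88 in C4-2B and -0.12 in NCI-H660 (0.03 without shCtrl replicate 2), and the transporters have medians of 0.13 and 0.04.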

How the data were processed

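RNA-seq of 8 libraries, 2 per group, was analysed. Gene-level estimated counts were deposited by the authors without normalization between libraries (22.4% of non-zero values lay more than 0.01 from a whole number), and were rounded before testing. TPM values were deposited by the authors, whose methods describe counts divided by Ensembl gene lengths and scaled. A fixed length per gene was not borne out by the files: among 18 members with at least 50 counts in every library, the log2 ratio of TPM to counts, relative to the library median, spanned up to 0.92 between libraries (SLC43A2), 0.60 for SLC36A4 and 0.51 for SLC7A6, so that TPM and CPM can differ for these genes. Per the labels the genome build was hg38. The aligner, the counting tool and the use of strand are not given in the sources used here. The TPM table holds 65535 of the 78691 genes, all 40 members among them.

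Each comparison was fitted in edgeR 4.0.16 (R 4.3.3) with TMM, filterByExpr and the quasi-likelihood test. A call needed a Benjamini-Hochberg adjusted p under 0.05, over all genes tested, and a log2 fold change of 0.5 or more in either direction. Biological coefficients of variation were 0.0829 (C4-2B) and 0.0965 (NCI-H660). Intervals are 95% intervals of the fitted log2 fold change. The difference between lines was an interaction over all 8 libraries. A library total sets 3 counts at between 0.0928 and 0.198 CPM. In tests on simulated data, drawn with the same dispersion for every gene, 200 of the better-counted genes were changed by a log2 fold change of 1.5. Of these, 199 (C4-2B, 16432 genes), 200 (NCI-H660, 16644), 200 (line comparison, 18038) and 196 (difference, 18406) were recovered, with 11, 13, 5 and 10 false calls. Smaller changes and genes of few counts were not tested in this way. Nor was a share of changed genes as large as in the data, where 71.6% were called between the lines.

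Replicates of a group differed by more than sampling noise (chi-square per degree of freedom of 4.83 to 11.7). Labels call some libraries biological replicates but name no separate cultures, so p-values measure the spread between these libraries, which may be technical. Members and lists were chosen with earlier results of these data known. The text names members by level, range or count, with values per library for those called in a MYCL comparison, and from each list up to 3 genes called in each direction with the largest fold changes and groups that did not overlap. For the difference the CPM of all 8 libraries were scaled together. Alternatives were DESeq2 1.42.0, other size factors, filters, thresholds and fits, limma 3.58.1 on log2(TPM + 1) and log2(TPM + 0.1), and leaving out each library. Positions and exon overlaps came from GENCODE 44, and promoter sequences from RefSeq (GRCh38.p14). No protein sequence was used here. A further gene of the neuroendocrine list is not reported here.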

Additional observations from a re-analysis of the deposited data

Results flagged for a closer look

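For 4 transporters the effect of higher MYCL differed between the lines by edgeR's interaction test, with the log2 difference coded as MYCL against control in C4-2B minus shCtrl against shMYCL in NCI-H660. SLC3A2 differed by 1.35, with a log2 fold change of 1.19 in C4-2B and, for shMYCL against shCtrl, 0.16 in NCI-H660. SLC1A4 differed by 1.32, being higher in MYCL than in control and higher in shMYCL than in shCtrl. SLC36A1 differed by -1.72, being lower in MYCL than in control and lower in shMYCL than in shCtrl. SLC38A3 differed by 1.26, on 30 to 35 counts per library in C4-2B and 139 to 209 in NCI-H660. With 2 libraries per group, no single library could be tested as standing apart.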

How the results depend on the processing

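In none of the alternatives did a called member change direction. SLC1A1 and SLC43A3, below the TPM filter in C4-2B, were not among the members tested there on filtered TPM. The number of members called in C4-2B was 7, and it was 4 with a limit of 1 on the log2 fold change, 4 by limma on log2(TPM + 1) and on log2(TPM + 0.1), 3 with that scale centred on each library and 2 without a filter, and 4 to 7 when 1 library was left out. In NCI-H660 it was 6, and it was 2 with a limit of 1, 9 with no limit on the fold change, 4 by DESeq2, 4 to 8 when 1 library was left out, and 0 of 34 by limma on log2(TPM + 1) without a filter, where 9 had an unadjusted p under 0.05 and 1 of 29413 genes was called. Counts for the line comparison (17 to 25, against 22) and for the difference (3 to 5, against 4) stayed within 1.5 times over all alternatives. SLC3A2 alone kept its call in C4-2B under every alternative, and in NCI-H660 no member did, the unfiltered TPM values ending all of them. SLC36A1, SLC1A4 and SLC3A2 kept their calls for the difference in every alternative. Over all genes, 3355 calls in C4-2B became 5895 with no limit on the fold change, 1411 with a limit of 1 and 1940 on unfiltered TPM. In NCI-H660 2745 became 4204 and 1022 with these limits and 1600 to 1702 on filtered TPM, between the lines 13427 became 8934 with at least 10 counts in every library, and for the difference 3513 became 1666 with a limit of 1 and 1898 on unfiltered TPM. The cause of these changes was not tested beyond the lower number of libraries or the stricter limit that an alternative sets.

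Replicate numbers are shared by the groups, but libraries with the same number did not deviate together (correlations of -0.014 to 0.026), so that the numbers give no pairing. With a replicate block 7 members were called in C4-2B, 6 in NCI-H660, 22 between the lines and 4 for the difference, the counts without it. Depth limits the 14 members below 1 TPM, none of which was called in a MYCL comparison.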
